A study of Mimachlamys nobilis with 6 samples.

Results

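The genes described here are the 248 gene IDs with lower values in the adductor muscle of scallops after RNA interference (RNAi) against VPS29 than in control muscle. They were selected on their deposited values among 9715 tested IDs, out of 30231 IDs in all. Levels are in FPKM, a read number corrected for the length of the gene and the size of the library. An ID was tested where 3 or more of the 6 libraries reached 1 FPKM. A lowered gene had its highest RNAi library below its lowest control library. Its mean log2(FPKM + 1) also had to be lower in the RNAi libraries by at least 1. The difference between the groups is therefore what chose these genes. Every value of it is given as a description, and none is support for an effect of RNAi.

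The animals were QN Orange scallops, a strain of the bivalve Mimachlamys nobilis, aged 1 year. The 2 groups were VPS29 RNAi (3 libraries) and control, labelled as being without RNAi (3 libraries). The labels speak of RNA taken per tank, give no number of animals per library, and do not say what the control animals received. The p-values thus describe the spread among the 6 libraries and no more, and that spread may be technical. The whole reads recovered from the deposited values totalled 16151187 to 20827085 in the RNAi libraries and 18709759 to 21546457 in the control libraries.

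As background, VPS29 is a subunit of retromer, a protein complex on endosomes that sorts membrane proteins for return to the cell surface or the Golgi instead of breakdown in the lysosome. RNAi lowers a targeted gene by breaking down its transcript. The adductor muscle closes the shell and also stores energy reserves. The files pair no gene ID with a gene name, so the VPS29 transcript itself, the muscle's marker genes and the pathways of the lowered genes are not analysed here. The IDs are of 2 kinds. Those that start with evm.TU., a prefix written by the gene-model builder EVidenceModeler, carry a contig and a running number. The others carry a prefix that labels the gene as new, then a running number and no contig. They are called IDs without a contig. Except for 2 printed IDs, genes are told apart by their length in bases, inferred from the steps of their FPKM values as the smallest that gives whole reads. Where the length and every read number share a factor, both come out divided by it.

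The 248 lowered genes were 2.55% of the tested IDs. In limma on log2(FPKM + 1), 0 IDs over all those tested (0%) were lower at an adjusted p under 0.05, and so 0 lowered genes were. At an unadjusted p under 0.05, 247 of the lowered genes were called, where 9.29% of all tested IDs were called lower. With voom on the recovered reads, 0 passed the adjusted threshold and 242 of the 245 lowered genes in that fit had an unadjusted p under 0.05. Since the rule used the same contrast, nothing is read from these counts. Groups did not overlap, with RNAi lower, for 12.2% of all tested IDs, and 3.97% had a log2 difference of -1 or below. A further 138 IDs were lower by at least 1 on the log2 scale but had overlapping groups.

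The log2 difference of the lowered genes, RNAi minus control, ran from -4.43 to -1.002 with a median of -1.27, beside a median of -0.05 over all tested IDs. Of the 248, 175 lay above -1.5, 24 reached -2 and 4 reached -3. At the median lowered gene, the mean FPKM in RNAi muscle was 32.5% of that in control muscle. The gap between the groups was often narrow. The lowest control library exceeded the highest RNAi library by a median of 1.498 times, by at least 2 times in 50 genes and by less than 1.1 times in 30. At the limit of the rule, the 3 genes just inside had log2 differences of -1.002 to -1.003, and the 3 just outside had -0.997, -0.991 and -0.991.

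**Figure D1:**
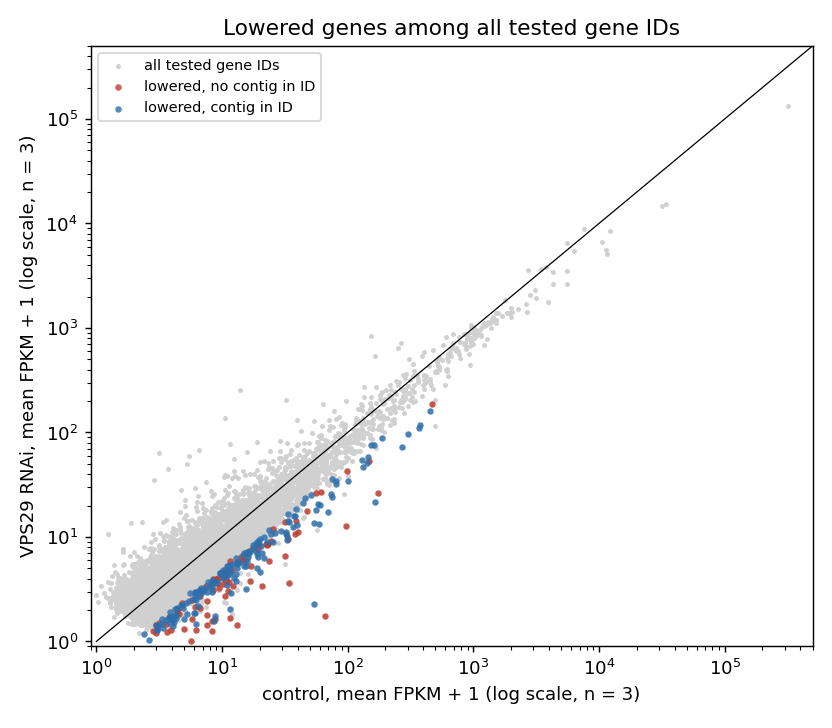
Mean FPKM + 1 in VPS29 RNAi muscle (y axis) against control muscle (x axis), both on log scales, for 9715 tested gene IDs (grey) and the 248 lowered genes (86 without a contig in the ID in red, 162 with a contig in blue). The lowered genes lie below the line of equal levels, by construction of the rule, and reach up to a control mean of 471 FPKM, in the gene of 1680 bases.

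The library scaling decided much of the membership. The library sizes behind the deposited FPKM were 24434309, 34767399 and 31086511 in RNAi replicates 1, 2 and 3, and 18171608, 30519170 and 15953438 in control replicates 1, 2 and 3, and they did not follow the read totals. When each library was instead scaled to the same sum (TPM), the median of all tested IDs moved to 0.49 and 63 genes met the rule. Scaling to the total of recovered reads moved that median to 0.42 and left 68. At an unadjusted p under 0.05, limma called 903 IDs lower and 751 higher as deposited, 122 lower and 2103 higher under TPM, and 136 lower and 2017 higher under total reads. Relative to the median of all tested IDs, the lowered genes were displaced by -1.22 as deposited, -1.35 under TPM and -1.25 under total reads. TPM and total reads multiply all values of a library by a common factor, which moves lowered genes and other IDs nearly alike. The similar displacements follow from that and are no sign of stability. Under the deposited values, TPM, total reads and quantile normalization alike, 60 of the 248 genes (24.2%) met the rule.

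The lowered genes together held 1.01%, 0.925% and 0.826% of the recovered reads in RNAi replicates 1, 2 and 3. In control replicates 1, 2 and 3 they held 1.71%, 1.95% and 1.41%. The 95% Wilson intervals, which cover counting error only, were at the widest 1.943% to 1.955%, in control replicate 2. Their summed level was 2547 ± 227 FPKM in RNAi muscle and 7685 ± 1604 FPKM in control muscle (SD, n = 3 each). In such bulk tissue, fewer cells of a type and less RNA per cell cannot be told apart. The median lowered gene had 4.08, 3.01 and 2.85 FPKM in RNAi replicates 1, 2 and 3, and 12.1, 7.94 and 12.8 FPKM in control replicates 1, 2 and 3.

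The largest difference belonged to a short gene of 275 bases without a contig in its ID. It had 1.93, 0 and 0.351 FPKM in RNAi replicates 1, 2 and 3, against 53.4, 4.17 and 139 FPKM in control replicates 1, 2 and 3. These values rest on 13, 0 and 3 reads in the RNAi libraries and 267, 35 and 611 reads in the control libraries. Control replicate 2 lay far below the other control libraries, although still above all RNAi libraries. The log2 difference was -4.43 ± 1.06 (SE) and became -3.41 without control replicate 3.

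The gene evm.TU.Contig274.63, inferred to be 707 bases long, had the same pattern at greater read depth. Its values were 3.13, 0.244 and 0.455 FPKM in RNAi replicates 1, 2 and 3, against 64.1, 6.91 and 87.2 FPKM in control replicates 1, 2 and 3. The control libraries again split, with replicate 2 at 149 reads beside 824 and 983 in replicates 1 and 3. The log2 difference was -4.19 ± 0.88 (SE), and -3.54 without control replicate 3. Under TPM the log2 differences of these genes were -4.495 for the gene of 275 bases and -4.10 for evm.TU.Contig274.63.

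Other strongly lower genes had more even levels within each group. A gene of 4546 bases without a contig in its ID had 26.7, 32.7 and 16.4 FPKM in RNAi replicates 1, 2 and 3, against 198, 123 and 204 FPKM in control replicates 1, 2 and 3. It was the deepest of the 10 with the largest difference, at 2323 to 5164 reads in the RNAi libraries and 14792 to 17024 reads in the control libraries. No library departed from its group, and the lowest control value was 3.76 times the highest RNAi value. The log2 difference was -2.76 ± 0.34 (SE), and -2.12 under TPM.

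A gene of 530 bases showed the same evenness at a lower level. It had 3.32, 1.47 and 2.37 FPKM in RNAi replicates 1, 2 and 3, against 14.8, 24.8 and 19.4 FPKM in control replicates 1, 2 and 3, a log2 difference of -2.62 ± 0.30 (SE). A gene of 293 bases had 1.40, 3.44 and 3.07 FPKM in the RNAi libraries and 16.0, 40.6 and 42.4 FPKM in the control libraries, in the same order of replicates. Here RNAi replicate 1 and control replicate 1 were each the lowest of their group. A gene of 666 bases had 0, 0.0432 and 1.26 FPKM in RNAi muscle and 6.03, 8.22 and 22.1 FPKM in control muscle, which is 0, 1 and 26 reads against 73, 167 and 235 reads.

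The other genes among the 10 with the largest difference and a control mean of at least 5 FPKM were 235, 285, 435 and 882 bases long, with log2 differences of -2.75, -2.54, -2.46 and -2.40. In each of these 4, control replicate 3 was the highest of all libraries and RNAi replicate 2 the lowest. The gene of 285 bases had 355.6 FPKM in control replicate 3, beside 89.6 and 50.01 FPKM in control replicates 1 and 2. Without control replicate 3 its log2 difference was -1.74. All 10 met the rule under all 4 scalings, which their choice by largest difference made likely.

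**Figure D2:**
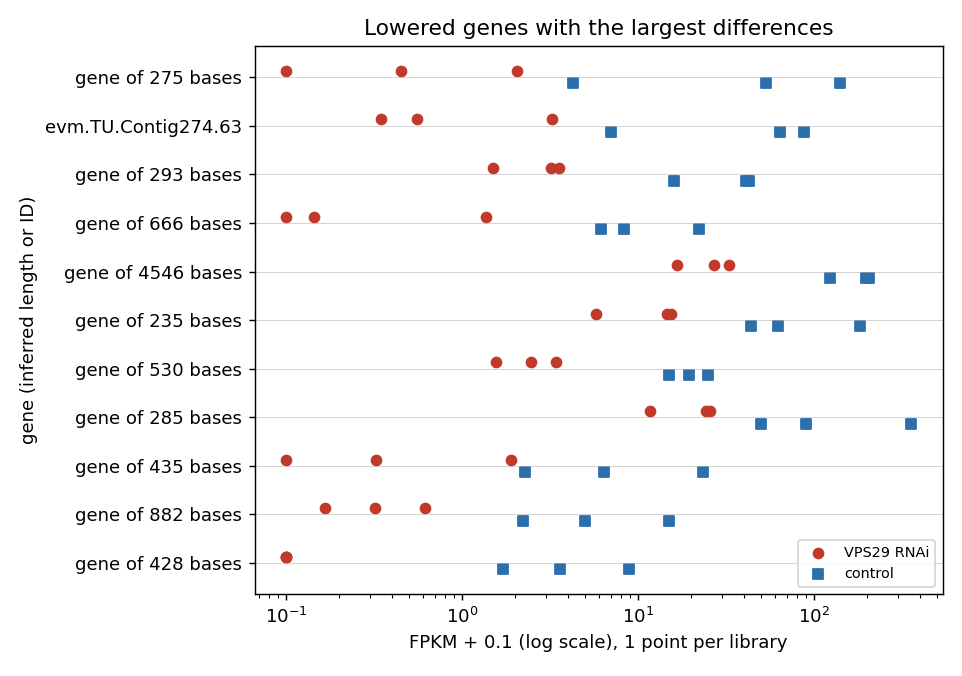
FPKM + 0.1 on a log scale for each library (VPS29 RNAi as red circles, control as blue squares) in the 10 lowered genes with the largest log2 difference and a control mean of at least 5 FPKM, and in the gene of 428 bases with 0 reads in all RNAi libraries. No gene has overlapping groups, and the control points spread widely in the genes of 275, 285, 435 and 882 bases and in evm.TU.Contig274.63, while those of the genes of 530 and 4546 bases lie close together.

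The most abundant lowered genes differed by less and depended on the scaling. The gene evm.TU.Contig133.71, inferred to be 2091 bases long, had 206, 109 and 161 FPKM in RNAi replicates 1, 2 and 3, against 604, 293 and 463 FPKM in control replicates 1, 2 and 3. It is the evm.TU. ID with the highest mean among the lowered genes. Its log2 difference was -1.496 ± 0.36 (SE) as deposited and -0.83 under TPM. The only lowered gene with a higher mean over the 6 libraries, 1680 bases long, had 258, 146 and 159 FPKM in RNAi muscle and 391.5, 324 and 699 FPKM in control muscle, at -1.29 ± 0.37 (SE).

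In the abundant genes the control libraries also differed among themselves. A gene of 315 bases had 100.3, 94.8 and 157 FPKM in the RNAi libraries and 761, 161 and 200.4 FPKM in the control libraries, so that control replicates 2 and 3 lay near RNAi replicate 3. Its log2 difference was -1.34 as deposited and -0.65 without control replicate 1. On whole reads the groups of this gene overlapped, at 772, 1038 and 1534 reads in RNAi replicates 1, 2 and 3 and 4356, 1543 and 1007 reads in control replicates 1, 2 and 3. A gene of 1918 bases had 46.3, 85.2 and 198 FPKM in RNAi muscle and 588, 219 and 306 FPKM in control muscle, and its reads overlapped as well. The log2 differences of the 10 most abundant lowered genes ran from -1.87 to -1.08, and 0 of the 10 met the rule under all 4 scalings.

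Nearly silenced genes were few. In 19 of the 248 genes (7.66%) the RNAi mean was at most 10% of the control mean, and their control means ran from 1.62 to 65.6 FPKM. Over all tested IDs the count was 20. In the opposite direction, 17 tested IDs had a control mean of at most 10% of the RNAi mean. Of the 19, 13 had no contig in the ID. Under all 4 scalings 18 met the rule, which their choice by a low ratio made likely. By deposited FPKM, control replicate 3 was the highest control library in 14 of the 19.

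A value of 0 occurred in at least 1 RNAi library for 17 lowered genes, in exactly 1 for 14, in 2 for 2 and in all 3 for 1. The last is a gene of 428 bases with 27, 21 and 60 reads in control replicates 1, 2 and 3 (3.47, 1.61 and 8.79 FPKM). With the library sizes behind the deposited FPKM, a floor of 3 reads over the RNAi group makes it at least 50.3-fold lower there. This bound covers counting error only, and it would differ under another scaling. A gene of 2631 bases came close to 0 reads in RNAi muscle, with more even control values. It had 1, 3 and 3 reads in RNAi replicates 1, 2 and 3. Control replicates 1, 2 and 3 had 107, 95 and 61 reads. Its mean level was 0.0283 ± 0.0112 FPKM in RNAi muscle and 1.62 ± 0.548 FPKM in control muscle (SD, n = 3 each), and its groups were 32.3 times apart at their nearest values. Its log2 difference of -1.33 understates this change, as the added 1 FPKM is large beside its level. In another lowered gene, of 1007 bases, RNAi replicate 2 was listed at 0 beside 260 and 381 reads in RNAi replicates 1 and 3, against 545, 745 and 207 reads in control replicates 1, 2 and 3. Its lowest control value was 1.06 times its highest RNAi value, and it was the only lowered gene with an unadjusted p above 0.05 in limma. The genes of 2631 and 1007 bases were chosen after their values were seen.

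IDs without a contig were more frequent among the lowered genes than among all tested IDs. They made up 86 of the 248 lowered genes (34.7%), 1726 of the 9715 tested IDs (17.8%) and 25 of the 219 IDs (11.4%) that met the same rule with the groups exchanged. Put the other way, 4.98% of the tested IDs without a contig and 2.03% of those with a contig were lowered genes. Under TPM the share without a contig was 54.0% of the 63 genes that met the rule, and under total reads 51.5% of 68. With a log2 difference of at least 2 in place of 1 it was 66.7% of 24. Other settings left it nearer to the first value. It was 37.6% under quantile normalization and 36.1% with a pseudocount of 0.1 FPKM. By a linear 2-fold difference it was 34.6%, and with a 5 FPKM filter 32.0%. The share was 28.7% without control replicate 3 and 46.9% without control replicate 2. This is a count of IDs, and no test was made of it. The set of raised IDs, from the rule with the groups exchanged, also depended on the scaling. It held 1077 IDs under TPM, 836 under total reads and 263 under quantile normalization.

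The difference between the kinds of ID was not limited to the lowered genes. Over all tested IDs the median log2 difference was -0.33 without a contig and 0.005 with a contig. Under TPM these medians were 0.16 and 0.56. Groups did not overlap, with RNAi lower, for 15.4% of the IDs without a contig and 11.5% of those with a contig. With RNAi higher, the shares were 4.35% and 11.8%. The median inferred lengths of the lowered genes were 1789 bases without a contig and 1504 bases with a contig.

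**Figure D3:**
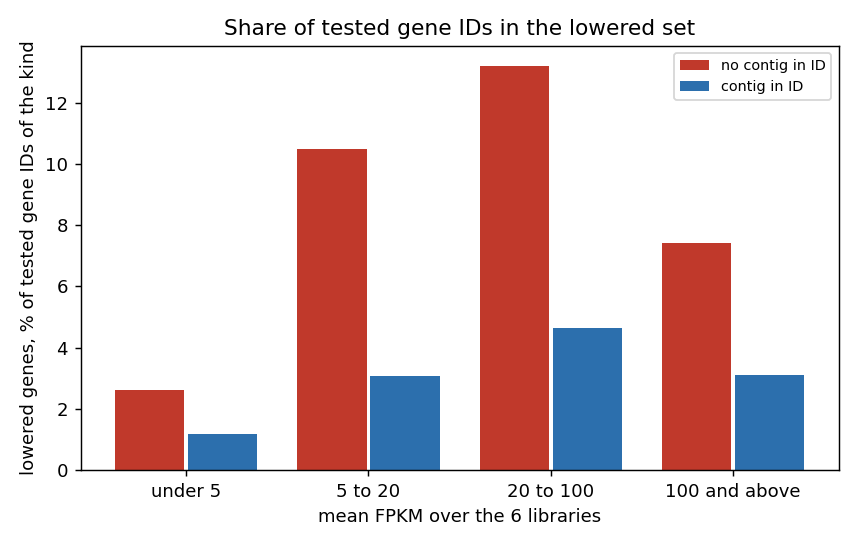
Share of tested gene IDs that were lowered genes (y axis, %) by mean FPKM over the 6 libraries (x axis), for IDs without a contig (red) and with a contig (blue). The share is higher for IDs without a contig in each of the 4 level classes, at 10.5% against 3.08% for 5 to 20 FPKM and 13.2% against 4.64% for 20 to 100 FPKM.

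The lowered genes lay at middle levels more often than the tested IDs as a whole. By the mean over all 6 libraries, 90 were under 5 FPKM, 103 at 5 to 20, 44 at 20 to 100 and 11 at 100 or above. These are 1.45%, 4.24%, 5.64% and 3.48% of the tested IDs of each class. The raised IDs had a similar profile, at 1.71%, 3.26%, 3.46% and 2.22% of these classes. The log2(FPKM + 1) scale makes a difference of 1 harder to reach at low levels, so the lowest class is held down by the rule. Within each class the share of lowered genes was higher among IDs without a contig, at 2.61% against 1.17% under 5 FPKM, and 7.41% against 3.11% at 100 FPKM and above. The last comparison rests on 2 lowered genes among 27 IDs without a contig. The median lowered gene was 1548 bases long, against 1944 bases for all tested IDs and 1563 bases for the 219 raised IDs.

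The depth behind the lowered genes was moderate. For the 245 of them whose values turned into whole reads, the lowest control library held a median of 220 reads. It held at least 100 reads in 163 genes and under 10 reads in 5 genes, the fewest being 3. The groups of those 5 genes are thus set apart by few reads.

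The rule did not fix the order of libraries within the groups, and by deposited FPKM some libraries led more often than others. Control replicate 3 was the highest control library in 130 of the 248 (52.4%), control replicate 1 in 80 and control replicate 2 in 38. Over all tested IDs, control replicate 3 was the highest in 38.1% and control replicate 2 in 32.1%. RNAi replicate 1 was the highest RNAi library in 141 lowered genes (56.9%), beside 38.7% of all tested IDs. The 219 raised IDs showed the opposite ends of the same libraries. RNAi replicate 1 was the lowest RNAi library in 68.5% of them, beside 41.3% of all tested IDs. Control replicate 3 was the lowest control library in 55.3%, beside 36.3% of all tested IDs. Among the lowered genes, the most frequent order of all 6 libraries was control 3, control 1, control 2, RNAi 1, RNAi 2, RNAi 3, in 43 genes (17.3%). The same order with RNAi 3 above RNAi 2 came next, in 30 genes. These orders depend on the library scaling and were not counted under another one. As shares of the recovered reads, the lowered genes together had the reverse order of control libraries. They held 1.95% in control replicate 2, 1.71% in control replicate 1 and 1.41% in control replicate 3. Among RNAi libraries the share was largest in RNAi replicate 1, at 1.01%.

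**Figure D4:**
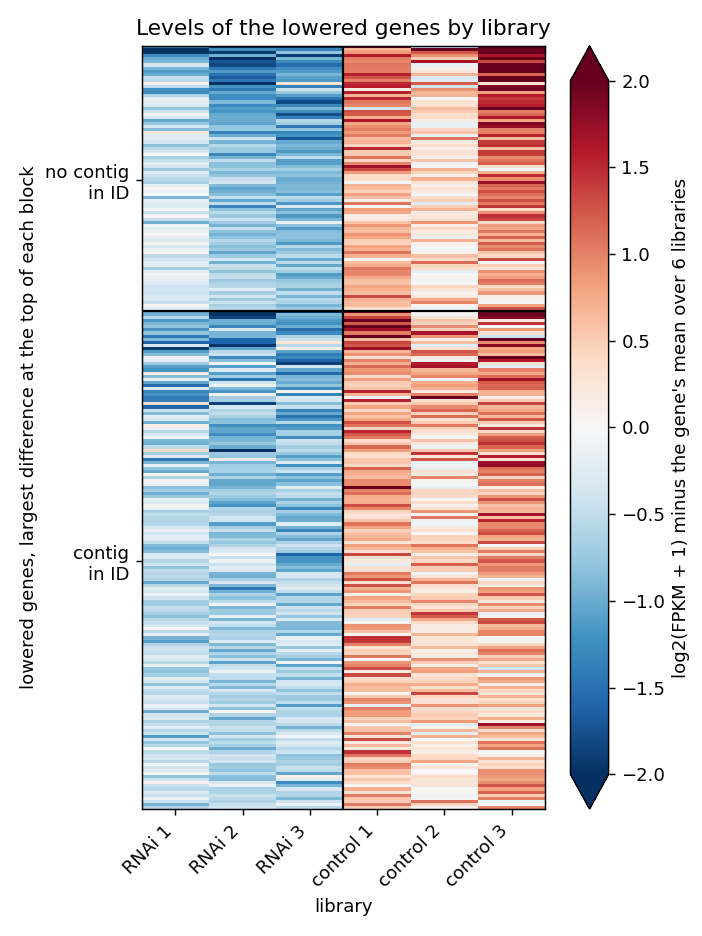
Level of each of the 248 lowered genes in each library, as log2(FPKM + 1) minus the gene's mean over the 6 libraries (red above the mean, blue below, colours capped at a distance of 2), with RNAi libraries left and control libraries right, and genes without a contig in the ID above those with a contig. By these deposited values, control replicate 3 is the highest control library in 130 genes and control replicate 2 in 38. RNAi replicate 1 is the highest RNAi library in 141.

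By deposited FPKM, control replicate 3 and RNAi replicate 1 led more often in lowered genes without a contig than in those with a contig. Control replicate 3 was the highest control library in 61.6% of these 86 lowered genes and in 47.5% of the 162 with a contig. RNAi replicate 1 was the highest RNAi library in 72.1% and 48.8%. Over all tested IDs, the median level of those without a contig minus that of those with a contig was -0.11, -0.53 and -0.63 on the log2 scale in RNAi replicates 1, 2 and 3, and 0.00026, -0.38 and 0.17 in control replicates 1, 2 and 3. RNAi replicate 1 thus lay above control replicate 2, and the groups overlapped. The share of reads taken by the single most abundant gene had the same order of libraries, at 34.5%, 22.53% and 22.48% in RNAi replicates 1, 2 and 3, and 36.3%, 29.0% and 48.7% in control replicates 1, 2 and 3. The part of this in the lowered genes was not tested.

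**Figure D5:**
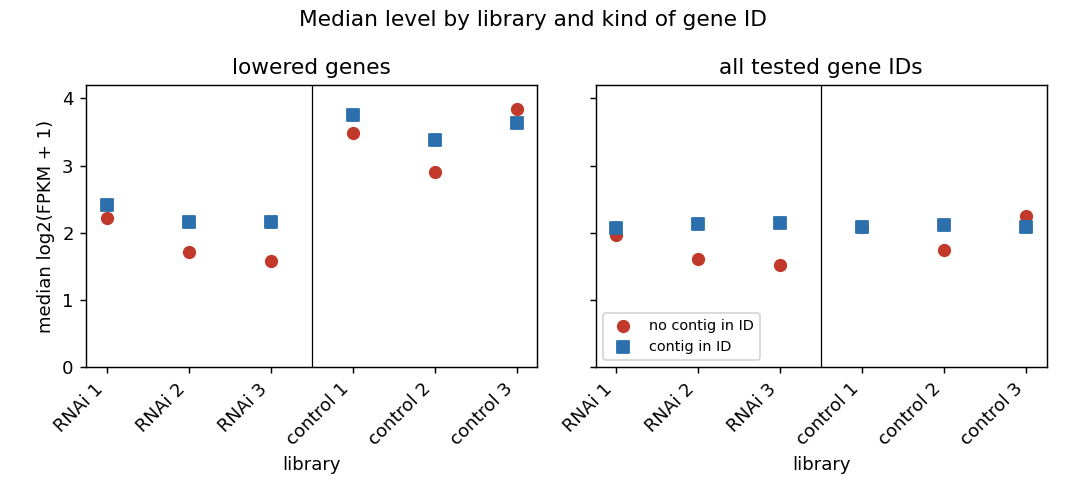
Median log2(FPKM + 1) in each library (RNAi left, control right) of IDs without a contig (red circles) and with a contig (blue squares), for the lowered genes and for all tested IDs. Over all tested IDs the medians with a contig stay between 2.07 and 2.15, while those without a contig run from 1.51 in RNAi replicate 3 to 2.25 in control replicate 3, and the 2 points of control replicate 1 coincide.

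The lowered genes lay on many contigs. The 157 lowered genes with a single contig and number lay on 121 contigs, of which 27 held at least 2, 7 held at least 3 and none more than 4. Genes with consecutive numbers on a contig are taken as neighbours. The lowered genes formed 4 neighbouring pairs and no longer run, whereas the 219 raised IDs formed 15 such pairs. Of the 125 places next to a lowered gene that held a tested ID, 8 (6.4%) held another lowered gene. This is a larger share than the 1.99% of all tested IDs with a contig and number that were lowered genes. For the raised IDs the share was 19.5% of 154 places, beside 2.45% of all tested IDs with a contig and number. The 116 tested neighbours that were not lowered genes themselves had a median log2 difference of -0.20, and 66.4% of them were below 0, beside 49.4% of all tested IDs with a contig. Their groups did not overlap, with RNAi lower, in 14.7%, beside 11.5% of all tested IDs with a contig.

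In each of the 4 neighbouring pairs, the same control library was the highest for both genes, and in 3 pairs both genes had the same order of all 6 libraries. The pair with the largest difference joined the gene of 285 bases described above to a gene of 1284 bases. The gene of 1284 bases had 12.6, 7.33 and 17.2 FPKM in RNAi replicates 1, 2 and 3, against 37.7, 26.6 and 110.1 FPKM in control replicates 1, 2 and 3, a log2 difference of -1.95 ± 0.52 (SE). Control replicate 3 was thus the highest library for both genes.

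A pair of 927 and 324 bases instead had control replicate 2 as its highest library. The gene of 927 bases had 2.38, 4.59 and 0.521 FPKM in RNAi muscle and 8.19, 15.8 and 5.95 FPKM in control muscle. The gene of 324 bases had 2.78, 4.08 and 1.59 FPKM in RNAi muscle and 11.9, 14.1 and 9.67 FPKM in control muscle. The remaining pairs, of 173 and 450 bases and of 2034 and 4677 bases, had log2 differences of -1.53 and -1.21, and of -1.003 and -1.21. The strand setting of the counting is not given in the sources used here. Nor do they show whether paired genes overlap or are alike in sequence. Whether neighbours share reads was not tested.

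Within groups, both the lowered genes and the raised IDs had a larger median SD of log2(FPKM + 1) than the tested IDs as a whole. The sets were not matched for level. A mean under 5 FPKM, where the added 1 narrows the SD, was found in 63.7% of the tested IDs and 36.3% of the lowered genes. The median SD of log2(FPKM + 1) was 0.37 among RNAi libraries and 0.50 among control libraries for the lowered genes. In the same order it was 0.39 and 0.40 for the raised IDs, and 0.27 and 0.34 over all tested IDs. In 51 lowered genes (20.6%) the highest control library was at least 3 times the lowest, beside 37.0% of the raised IDs and 18.8% of all tested IDs. The filter and the rule shape these shares, so nothing is read from their contrast. They put all 248 lowered genes at 1 FPKM or more in every control library. Control is instead the low group of the raised IDs, of which 13 were at 0 in at least 1 control library. With each library left out in turn, 130 of the 248 genes met the rule every time, 53 of them without a contig in the ID. Of these 130, 58 also met it under all 4 scalings. Leaving out a library cannot make the groups of a lowered gene overlap, so only the limit on the log2 difference could fail. The count of 130 thus favours genes with larger differences.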

How the data were processed

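The authors deposited 1 table of FPKM values for each of the 6 libraries. Per the submitters' processing notes, HISAT2 2.0.4 was among the tools, as was HTSeq 0.9.1, with no role or parameters. The sources used here give no genome build, annotation or strand setting. The lowered genes, the lists and the rule for named genes were chosen with earlier results of these data known. That rule took 10 lowered genes by largest difference (control mean of at least 5 FPKM), 10 by highest mean, those at 0 in all RNAi libraries, and the longest neighbouring runs, 28 genes in all.

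Each gene's length and whole reads were inferred from its FPKM steps (within 0.001 read and a relative error of 3e-09). This succeeded for 23403 of 23408 IDs above 0 (99.98%). Same-group libraries differed by more than sampling noise, the chi-square per gene having a median between 5.77 and 34.2.

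Limma 3.58.1 in R 4.3.3 (eBayes with trend and robust) was fitted on log2(FPKM + 1) across all 9715 tested IDs with the group as the only term, two-sided, with Benjamini-Hochberg adjustment at 0.05. The fit and the recovery of reads were tested on simulated data. With 3 libraries against 3, an exact permutation test cannot go below 0.1, and none was run. Other work used Python 3.11.15, pandas 2.3.3, numpy 2.4.6, matplotlib 3.10.9 and scipy 1.17.1. Alternatives were leaving out each library, TPM, quantile and total-read scaling, other pseudocounts, filters and limits, a replicate block, plain eBayes and voom.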

Additional observations from a re-analysis of the deposited data

How the results depend on the processing

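The 248 genes by the rule became 63 under TPM, 68 under total reads, 418 with a pseudocount of 0.1 FPKM, 150 with a 5 FPKM filter, 24 at a log2 difference of 2, 442 by a linear 2-fold difference, and 262 (without RNAi replicate 2) to 563 (without RNAi replicate 1) with 1 library left out (548 without control replicate 2). It was 205 under quantile normalization and 255 without a filter. A rule on fewer libraries is easier to meet. The share without a contig, added after the data were seen, was 34.7%, and 54.0%, 51.5% and 66.7% under TPM, total reads and a log2 difference of 2. It was 28.7% to 46.9% with 1 library left out. Under quantile normalization, a pseudocount of 0.1 FPKM, a 5 FPKM filter, no filter and a linear 2-fold difference it was 32.0% to 37.6%. The median log2 difference of the 248, -1.27, became -0.86 under TPM, -0.83 under total reads and -1.61 with the smaller pseudocount (-1.41 to -1.21 with 1 library left out). TPM and total reads moved the median of all tested IDs upward. The count lower at an adjusted p under 0.05 in limma, 0 (903 unadjusted; voom 0 and 960), became 12 under TPM, 11 under total reads, 3 with the 5 FPKM filter, and 0 to 1 when leaving out libraries singly, the 1 being without RNAi replicate 1. Unadjusted, it became 122 under TPM, 136 under total reads, 452 with the 5 FPKM filter on 3570 IDs, and 461 (without RNAi replicate 2) to 1217 (without control replicate 2), being 584 without RNAi replicate 3. The deviations of libraries that share a number were not correlated throughout (r = -0.04, 0.29 and -0.33), and 1 of 6 libraries correlated best with its own number. The replicate block gave 0 adjusted and 814 unadjusted calls. Of 308 values for the 28 named genes, all below 0, 292 kept their side of the threshold and 16 passed it, mostly under TPM or total reads. The rule fixed the sign in advance with a library left out, with the smaller pseudocount and with the replicate block. The signs are thus no sign of stability. Voom, plain eBayes and the filter settings were not among these values. Beyond the shifts, the cause was not tested. A count of 0 allows up to 3 reads.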

Other observations

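For 5 of the 23408 IDs above 0, no single length turned the deposited values into whole reads within the tolerance, although the same library sizes did so for the other 23403. All 5 had a lower mean in RNAi muscle, 4 had groups that did not overlap, and 3 were among the 248 lowered genes. The highest of them had 8.86, 10.1 and 8.39 FPKM in RNAi replicates 1, 2 and 3, against 22.6, 34.7 and 37.8 FPKM in control replicates 1, 2 and 3. The other lowered genes of this kind averaged 7.08 FPKM in RNAi muscle and 17.1 FPKM in control muscle, and 1.54 FPKM in RNAi muscle and 5.01 FPKM in control muscle. The last of these is numbered next to another ID of the kind, which was listed at 0 in all RNAi libraries and at 0.702, 0.0908 and 0.127 FPKM in control replicates 1, 2 and 3. Why these values have no whole-read form was not tested.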
